A study of Homo sapiens with 12 samples.

Results

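The genes described here are 54 human interferon-stimulated and IRF (interferon regulatory factor) genes, taken by symbol from a table of 35984 genes measured by RNA sequencing in HepG2 cells, an established human hepatoma line. They were grouped by role into IRF and ISGF3 factors (6 genes), ISG15 and its conjugation (6), RNA sensors and sensor-linked genes (5), the OAS family with ISG20 (5), the IFIT family (4), membrane and entry restriction (4), intracellular antiviral effectors (6), the GBP family (4), PARP genes with DTX3L (5), nuclear body genes with TRIM21 (3), and other IFI genes with XAF1 (6). All 54 were listed in the table and 46 passed the filter on low counts. The data comprised 4 groups of 3 libraries. DKD TNFα and DKD untreated were HepG2 cells carrying integrated shRNA cassettes against the macroH2A1 and macroH2A2 transcripts (knock-down of both genes, DKD), and CTL TNFα and CTL untreated were HepG2 cells with control shRNAs. Both lines had been made by retroviral transduction with pRetroSUPER vectors, and all cells were starved overnight in 0.5% serum before 24 hours with TNFα at 20 ng/mL or with its vehicle alone (untreated). The labels give neither the origin of each line (a pool or a clone) nor that of the 3 libraries, which need not be separate cultures. A difference between the lines as such and an effect of the knock-down therefore cannot be told apart. A p-value here measures library-to-library spread, which could be technical.

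Type I and type III interferons act through receptors that activate JAK1 and TYK2, and the kinases phosphorylate STAT proteins. With IRF9, these form the complex ISGF3, which binds the interferon-stimulated response element (ISRE) in the promoters of antiviral genes. Interferon-gamma signals through JAK1 and JAK2 and acts on genes through the gamma-activated site (GAS). IRF1 is a transcription factor induced by interferon-gamma and, through NF-kB, by TNFα, and it recognises elements that resemble the ISRE. MacroH2A proteins are variants of histone H2A that carry an additional globular macro domain.

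Promoter sequences are shown for 5 genes that were higher with TNFα and matched the ISRE or NF-kB letters upstream of the start, and for 2 that were below the count filter. Each is the 250 bases before the RefSeq gene start (GRCh38.p14), written 5′ to 3′ on the gene's strand, with capitals for matches to the ISRE letters GAAANNGAA on either strand and to the NF-kB consensus. They lie at chr5:132490774-132491023, minus strand (IRF1), chr2:162318685-162318934, minus strand (IFIH1), chr12:112938224-112938473, plus strand (OAS3), chr15:88638766-88639015, plus strand (ISG20), chr7:140062952-140063201, minus strand (PARP12), chr4:168318753-168319002, minus strand (DDX60) and chr1:78620198-78620447, plus strand (IFI44L).
IRF1: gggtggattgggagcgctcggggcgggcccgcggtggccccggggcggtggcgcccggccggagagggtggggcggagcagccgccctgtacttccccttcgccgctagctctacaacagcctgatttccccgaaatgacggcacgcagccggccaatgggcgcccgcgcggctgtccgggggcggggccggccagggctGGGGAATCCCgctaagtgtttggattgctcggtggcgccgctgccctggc
IFIH1: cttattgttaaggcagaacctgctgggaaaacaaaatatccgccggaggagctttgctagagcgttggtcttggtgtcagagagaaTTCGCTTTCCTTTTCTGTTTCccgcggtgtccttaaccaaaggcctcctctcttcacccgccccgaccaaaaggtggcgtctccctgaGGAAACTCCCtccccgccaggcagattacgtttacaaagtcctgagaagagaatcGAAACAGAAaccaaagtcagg
OAS3: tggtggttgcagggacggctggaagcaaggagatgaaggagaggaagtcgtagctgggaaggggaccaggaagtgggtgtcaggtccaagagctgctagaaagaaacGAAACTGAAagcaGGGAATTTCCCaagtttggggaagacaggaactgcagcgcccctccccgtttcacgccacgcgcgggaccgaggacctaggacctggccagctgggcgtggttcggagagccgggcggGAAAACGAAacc
ISG20: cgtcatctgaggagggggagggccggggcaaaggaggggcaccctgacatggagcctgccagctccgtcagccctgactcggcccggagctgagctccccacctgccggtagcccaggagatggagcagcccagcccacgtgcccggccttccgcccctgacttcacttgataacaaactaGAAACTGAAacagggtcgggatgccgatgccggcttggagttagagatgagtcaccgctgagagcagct
PARP12: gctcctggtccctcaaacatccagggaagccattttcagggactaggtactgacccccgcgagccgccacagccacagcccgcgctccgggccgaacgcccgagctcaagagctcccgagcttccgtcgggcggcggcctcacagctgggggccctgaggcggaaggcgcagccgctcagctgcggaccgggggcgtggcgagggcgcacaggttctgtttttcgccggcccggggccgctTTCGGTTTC
DDX60: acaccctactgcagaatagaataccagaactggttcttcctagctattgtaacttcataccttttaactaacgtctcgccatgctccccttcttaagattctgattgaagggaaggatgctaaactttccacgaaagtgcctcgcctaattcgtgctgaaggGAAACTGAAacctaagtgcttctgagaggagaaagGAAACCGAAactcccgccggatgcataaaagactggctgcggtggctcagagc
IFI44L: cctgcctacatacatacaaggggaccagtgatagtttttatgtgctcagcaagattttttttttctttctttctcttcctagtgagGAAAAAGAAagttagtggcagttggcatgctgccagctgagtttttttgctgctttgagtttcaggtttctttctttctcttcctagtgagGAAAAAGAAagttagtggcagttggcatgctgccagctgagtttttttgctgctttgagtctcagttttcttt

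In IRF1 the NF-kB match lay 50 to 41 bases before the start and a match to the GAS letters TTCNNNGAA, left in lower case above, 124 to 116 bases before it. IFIH1 held 4 ISRE matches, 3 of them overlapping, and 1 NF-kB match at 76 to 67 bases before the start. OAS3 held ISRE matches at 143 to 135 and 12 to 4 bases with an NF-kB match between them. ISG20 had 1 ISRE match at 69 to 61 bases and PARP12 1 at 9 to 1 bases. DDX60, an RNA helicase, held 2 ISRE matches and IFI44L 2. Such a match describes letters only and does not show binding.

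RefSeq promoters, here from 250 bases before to 50 after the start, were found for 42 of the 54 genes. Of these, 27 (64.3%, 95% Wilson interval 49.2% to 77.0%) held the ISRE letters on either strand, against 2264 of all 27305 promoters (8.29%). The NF-kB consensus was found in 8 (19.0%, interval 9.98% to 33.3%), against 10.8% of all promoters, and the GAS letters in 10 (23.8%, interval 13.5% to 38.5%), against 7.88%. Of the 8 genes called higher with TNFα, 7 had a promoter in the table, of which 5 held the ISRE letters, 3 the NF-kB consensus (IRF1, IFIH1 and OAS3) and 3 the GAS letters (IRF1, OAS1 and GBP3). Of the 8 genes below the count filter, 6 had one, of which 5 held the ISRE letters and none the NF-kB consensus. ISRE and GAS matches can share bases and did so in BST2, IFI27 and IFITM1. Interferon-stimulated genes are defined by their interferon response, so the ISRE share describes the list and was not tested.

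The libraries held 30955080 to 42094144 estimated counts, and the 54 genes took 0.122% to 0.156% of them. Levels are given as CPM, counts scaled to a common library size with TMM factors, where 1 count was worth 0.0238 to 0.0320 CPM. MACROH2A1 and MACROH2A2, the targeted genes, were lower in DKD cells with TNFα (log2 fold change -2.27, SE 0.20, and -3.55, SE 0.16; edgeR quasi-likelihood adjusted p = 9.60e-05 and 8.20e-07) and without it (-2.35, SE 0.20, and -3.50, SE 0.16; adjusted p = 8.74e-05 and 1.16e-06). All 8 hepatocyte markers were expressed in the 12 libraries, and 4 of them (ALB, APOA1, TTR and FGB) were higher in DKD than in CTL cells with and without TNFα. ALB, the largest of these, had log2 fold changes of 3.35 (SE 0.25, adjusted p = 2.97e-05) with TNFα and 3.72 (SE 0.25, adjusted p = 2.13e-05) without it. With TNFα, AFP, APOA1 and FGB were lower in both lines and ALB in DKD cells. Of the leukocyte markers CD3E was at 0, PTPRC reached at most 0.390 CPM, CD68 4.50 to 14.4 CPM, no endothelial marker exceeded 2.43 CPM and no fibroblast marker 0.951 CPM. Of the biliary markers, EPCAM (123 to 167 CPM) was higher in DKD than in CTL untreated cells (log2 fold change 0.35, SE 0.08, adjusted p = 0.0275), KRT19 read 0.465 to 6.004 CPM and KRT7 at most 0.240 CPM. With the replicate number as a block, KRT19 was higher with TNFα in CTL cells (1.69, SE 0.38, edgeR adjusted p = 0.0156). CD68 was then lower in both TNFα and both line contrasts. With the block ALB was also lower with TNFα in CTL cells (-0.92, SE 0.08, adjusted p = 6.49e-05), as was TTR (-0.31, SE 0.08, adjusted p = 0.0315). SERPINA1 was then higher in DKD than in CTL cells with and without TNFα (adjusted p = 0.00566 and 0.00900), and HNF4A with TNFα (adjusted p = 0.0180). The part of these shifts in the members' differences was not tested. The first principal component (33.0% of the variance) set the DKD libraries numbered 1 apart at -53.9 (TNFα) and -83.7 (untreated), with the other 10 between -18.2 and 41.5.

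Levels per length ran from abundant to near nothing among these genes. Per kilobase of merged exons (GENCODE v29), the highest mean in CTL untreated cells was that of BST2, or tetherin, which holds budding virions at the membrane, at 58.1 ± 10.0 CPM per kilobase (SD, n = 3, as for all means here). IFITM3, which blocks virus entry from endosomes, followed at 53.7 ± 6.01 CPM per kilobase, a distance from BST2 within their spread. ADAR, the RNA-editing adenosine deaminase, stood at 37.3 ± 1.47, TRIM25, a ubiquitin ligase that acts with the sensor RIG-I, at 29.7 ± 1.21, and IRF3 at 19.2 ± 0.521 CPM per kilobase, each below the one before by more than either SD.

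At the other end stood the 8 genes below the count filter, several of them classical readouts of an interferon response. IRF7, which amplifies type I interferon production, had 25 counts in all 12 libraries together. HERC5, the main ISG15 ligase in humans, had 6, SAMD9L 10, IFI44 10, IFI44L 40, DDX60 56, OASL 59 and RSAD2 (viperin) 87. IRF7, HERC5, SAMD9L and IFI44 had libraries with 0 counts, and a count of 0 in 1 library allows up to 3 counts, or 0.0713 to 0.0962 CPM. None of the 8 was called when the filter was left out. DDX60 read 0.0499, 0.192 and 0.340 CPM in the DKD TNFα libraries, against 0.0546, 0.0476 and 0.0715 CPM in the DKD untreated ones. Its CTL libraries read 0.0976, 0.0489 and 0.288 CPM with TNFα, against 0.0486, 0.0961 and 0.04799 CPM untreated. The higher DDX60 values came from TNFα libraries, but the groups overlapped in both lines. IRF7 read 0.0250, 0.0240 and 0.0972 CPM in the DKD TNFα libraries and 0, 0.0476 and 0.0715 CPM in the DKD untreated ones. In CTL cells it read 0.0244, 0.0733 and 0 CPM with TNFα and 0.0729, 0.160 and 0.0480 CPM untreated, so that all 4 groups overlapped.

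**Figure D1:**
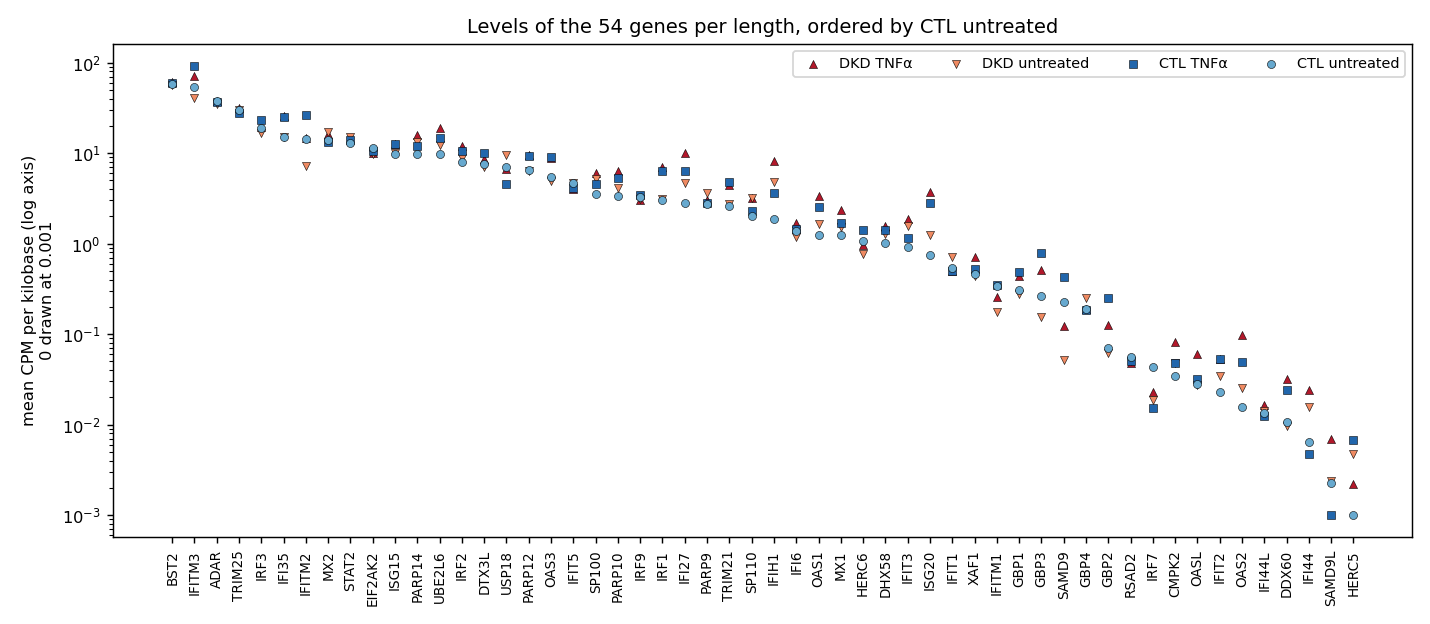
Mean CPM per kilobase of merged exons (log axis) of the 54 genes in the 4 groups, ordered from left to right by the CTL untreated mean, with means of 0 drawn at 0.001. BST2 and IFITM3 stand at the left above 50 in CTL untreated cells, and SAMD9L and HERC5 at the right end below 0.01 in all 4 groups.

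TNFα raised 7 of the 46 tested genes in DKD cells and 8 in CTL cells, and lowered none in either. Called in CTL cells were the transcription factors IRF1 and IRF2, the RNA sensor IFIH1 (MDA5), the oligoadenylate synthetases OAS1 and OAS3, the exonuclease ISG20, the guanylate-binding protein GBP3 and the ADP-ribosyltransferase PARP12. All except IRF2 were also called in DKD cells. A gene was called at a Benjamini-Hochberg adjusted p under 0.05 over 16118 genes in edgeR's quasi-likelihood test. The shares called higher were 15.2% of the tested members in DKD cells, against 1.54% of all genes, and 17.4% in CTL cells, against 1.90%. The shares called lower were 0% in both lines, against 0.254% of all genes in DKD cells and 0.726% in CTL cells. In bulk RNA, fewer cells with the transcript and less of it per cell cannot be told apart. The median log2 fold change with TNFα over the tested members was 0.54 in DKD cells and 0.42 in CTL cells, beside medians of -0.0082 and 0.00084 over all genes. In DKD cells 37 of 46 log2 fold changes were above 0 (48.3% of all genes) and in CTL cells 38 of 46 (50.2%).

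Libraries with the same replicate number deviated together, and a fit with this number as a block called more genes. With the block, 20 members were higher and 1 lower with TNFα in DKD cells (43.5% and 2.17%, beside 5.55% and 2.13% of all genes). In CTL cells 21 were higher and 1 lower (45.7% and 2.17%, beside 7.94% and 4.70%), with 18 higher in both lines. Without the block, the count in DKD cells was 4 when DKD TNFα library 2 or 3 or DKD untreated library 3 was left out, and 1 (IRF1; 0.251% of all genes) when the fit held the DKD libraries alone. The count in CTL cells was 3 to 5 when any 1 of the 6 CTL libraries was left out, and 13 without DKD untreated library 1. The number of all genes called higher moved too, over 16380 to 16452 genes tested. In DKD cells it was 112 to 131 without 1 of the DKD libraries named, against 248 with all 12 libraries. In CTL cells it was 115 to 216 without 1 CTL library and 482 without DKD untreated library 1, against 306. IRF1, OAS1 and ISG20 were called in both lines whichever single library was left out, as was PARP12 in DKD cells. The fits that left out single libraries, here and below, were all run without the block. With the block and all 12 libraries, all 7 calls in DKD cells and all 8 in CTL cells held.

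**Figure D2:**
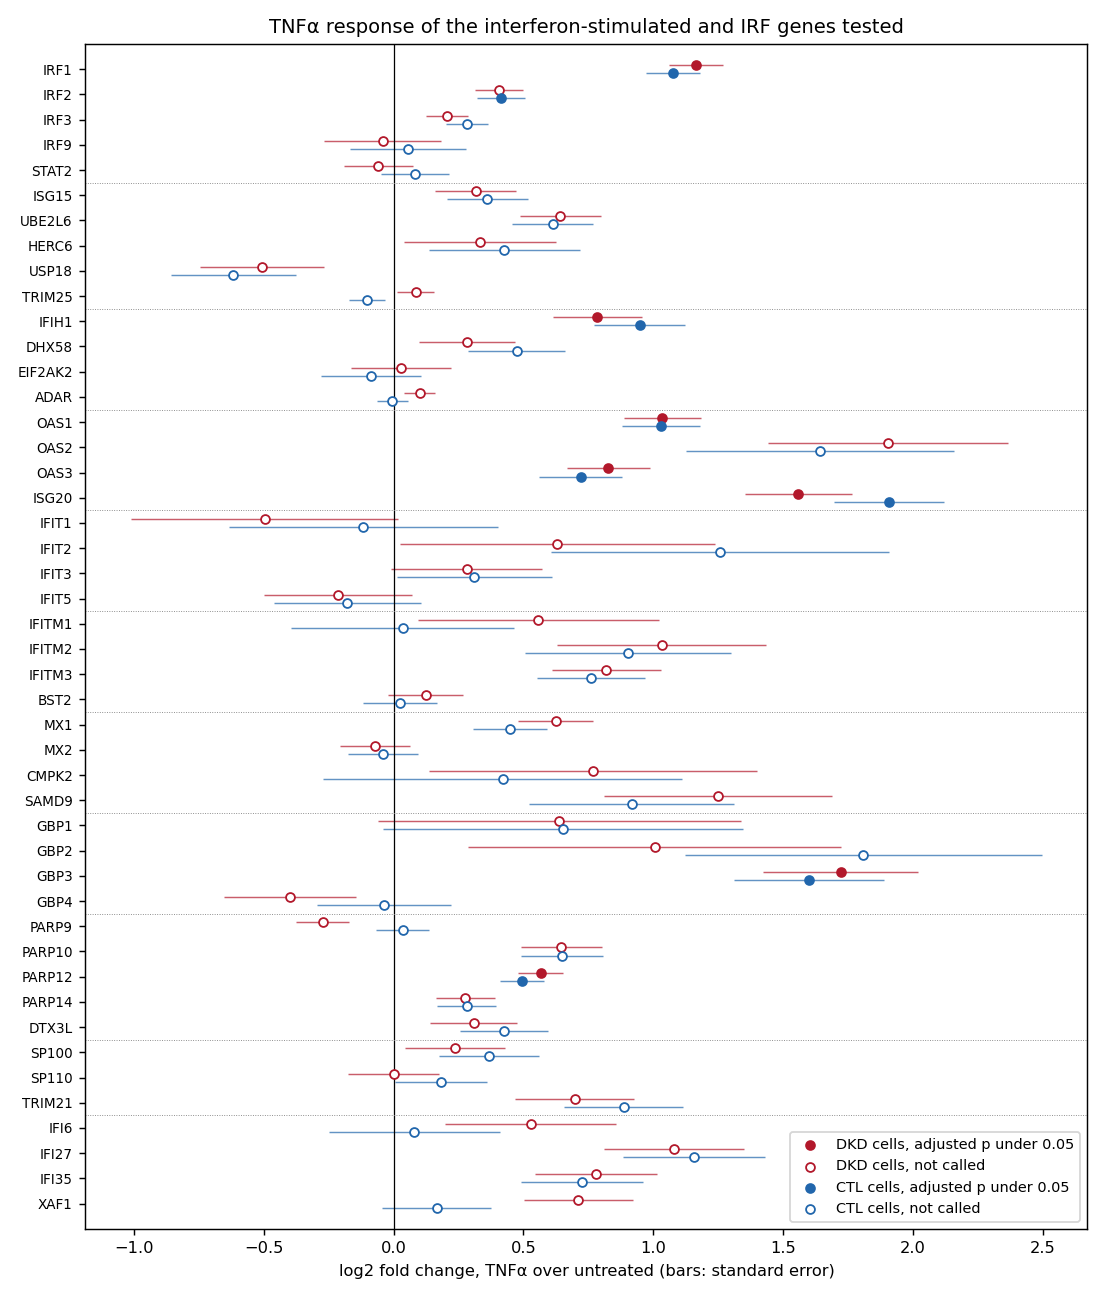
log2 fold change with TNFα over untreated (bars are standard errors) of the 46 tested genes, by role from the IRF factors at the top to the other IFI genes at the bottom, in DKD cells (red) and CTL cells (blue). Filled points were called at an adjusted p under 0.05. ISG20 and GBP3 lie at 1.56 to 1.91 in both lines. The IFIT genes have wide bars and lie on both sides of 0, IFIT2 and IFIT3 above it and IFIT1 and IFIT5 below.

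Among the IRF and ISGF3 factors, IRF1 responded to TNFα in both lines. IRF1 had 25.3, 26.8 and 27.9 CPM in DKD TNFα libraries, against 13.1, 11.1 and 11.4 CPM in DKD untreated ones. The CTL libraries had 23.1, 23.3 and 25.7 CPM with TNFα, against 11.6, 10.6 and 11.97 CPM untreated. Every TNFα library stood above every untreated one by far more than the replicates spread, with log2 fold changes of 1.17 (SE 0.10, edgeR adjusted p = 0.000300) in DKD cells and 1.08 (SE 0.10, adjusted p = 0.000387) in CTL cells. TNFα took 97.1% of the sum of squares of IRF1 over the 12 libraries.

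IRF2, which competes with IRF1 for the same elements, moved less. It had 27.2, 26.8 and 27.96 CPM in DKD TNFα libraries, against 19.5, 20.8 and 21.6 CPM in DKD untreated ones. Its CTL libraries had 26.0, 23.5 and 24.5 CPM with TNFα, against 20.2, 17.3 and 18.0 CPM untreated. The groups did not overlap in either line, and the log2 fold change was 0.41 (SE 0.09) in both, with an edgeR adjusted p of 0.0553 in DKD cells and 0.0391 in CTL cells (0.0108 and 0.00748 with the replicate block). The call in CTL cells was lost when any 1 of 10 libraries was left out, with adjusted p of 0.0501 to 0.226.

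IRF3, the constitutive factor that induces interferon-beta once phosphorylated, had 43.8, 44.6 and 50.9 CPM in DKD TNFα libraries, against 41.4, 38.8 and 40.8 CPM in DKD untreated ones. In CTL cells it had 53.3, 56.8 and 57.4 CPM with TNFα, against 47.0, 44.6 and 46.1 CPM untreated. With TNFα, DKD libraries lay below all CTL libraries. No contrast of IRF3 was called, but with the replicate block it was higher with TNFα in CTL cells (log2 fold change 0.28, SE 0.07, edgeR adjusted p = 0.0220) and lower in DKD than in CTL cells under TNFα (-0.27, SE 0.07, adjusted p = 0.0192). Without the block the adjusted p were 0.110 and 0.0872.

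Neither IRF9 nor STAT2 was called. IRF9 had 6.97, 5.19 and 5.62 CPM in DKD TNFα libraries and 8.28, 4.59 and 5.46 CPM in DKD untreated ones, against 8.24, 6.04 and 5.81 CPM in CTL TNFα and 6.32, 6.54 and 6.48 CPM in CTL untreated ones. STAT2 had 52.7, 48.0 and 46.5 CPM in DKD TNFα and 64.5, 44.4 and 44.4 CPM in DKD untreated libraries, against 45.9, 48.7 and 46.5 CPM in CTL TNFα and 43.8, 45.1 and 44.5 CPM in CTL untreated ones. All 4 groups of IRF9 overlapped, and the high STAT2 value of DKD untreated cells came from 1 library.

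**Figure D3:**
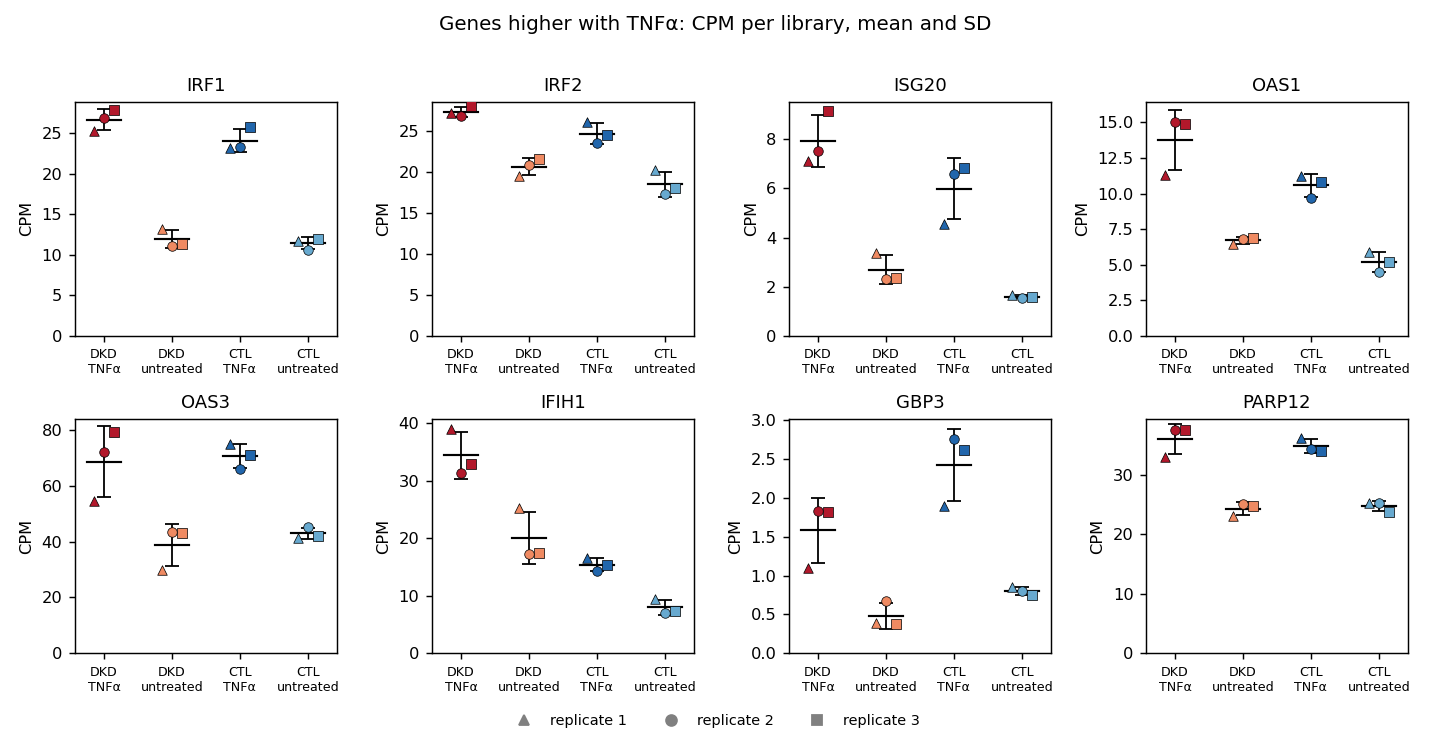
CPM per library (points, shape by replicate number) with mean and SD (lines) of the 8 genes called higher with TNFα, with DKD TNFα, DKD untreated, CTL TNFα and CTL untreated from left to right in each panel. In all 8 panels the 3 TNFα points of a line lie above its 3 untreated points, and IFIH1 is higher in DKD than in CTL cells.

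The OAS family with ISG20 held 3 of the 8 calls. ISG20, a 3′-to-5′ exonuclease that degrades viral RNA, had 7.12, 7.54 and 9.14 CPM in DKD TNFα libraries, against 3.39, 2.33 and 2.36 CPM in DKD untreated ones. In CTL cells it had 4.56, 6.58 and 6.82 CPM with TNFα, against 1.65, 1.54 and 1.58 CPM untreated. TNFα libraries stood clear of untreated ones in both lines, with log2 fold changes of 1.56 (SE 0.21, edgeR adjusted p = 0.00295) in DKD cells and 1.91 (SE 0.21, adjusted p = 0.000909) in CTL cells. ISG20 was also above CTL in untreated DKD cells in every library, a difference that passed with the block and not without it (log2 fold change 0.75, SE 0.21, adjusted p = 0.0718 without and 0.0389 with it).

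OAS1 and OAS3 make 2′-5′-linked oligoadenylates that activate RNase L. OAS1 had 11.3, 15.04 and 14.9 CPM in DKD TNFα libraries, against 6.45, 6.80 and 6.89 CPM in DKD untreated ones. In CTL cells OAS1 had 11.2, 9.68 and 10.8 CPM with TNFα, against 5.86, 4.45 and 5.21 CPM untreated. The log2 fold change of OAS1 was 1.03 (SE 0.15) in both lines, with edgeR adjusted p of 0.00477 in DKD and 0.00444 in CTL cells. OAS3 had 54.7, 72.2 and 79.1 CPM in DKD TNFα libraries, against 29.9, 43.3 and 43.0 CPM in DKD untreated ones. In CTL cells OAS3 had 75.0, 66.1 and 70.9 CPM with TNFα, against 41.4, 45.1 and 42.1 CPM untreated. Its lowest TNFα value in DKD cells still lay above all untreated values, and its log2 fold changes were 0.83 (SE 0.16, adjusted p = 0.0269) in DKD and 0.72 (SE 0.16, adjusted p = 0.0390) in CTL cells. The OAS3 calls were lost when any 1 of 9 libraries was left out in DKD cells and any 1 of 10 in CTL cells, with adjusted p up to 0.155 and 0.195.

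OAS2 was near the floor, with means of 0.603 ± 0.149 CPM in DKD TNFα and 0.160 ± 0.0520 CPM in DKD untreated cells, and 0.308 ± 0.164 CPM in CTL TNFα and 0.0967 ± 0.0489 CPM in CTL untreated cells. The groups with and without TNFα did not overlap in either line. Neither difference of OAS2 was called, and that in DKD cells passed with the block (log2 fold change 1.90, SE 0.46, edgeR adjusted p = 0.0759 without and 0.0318 with it). OASL, a catalytically inactive relative, stayed below the filter with means of 0.195 ± 0.0713 and 0.0897 ± 0.0470 CPM in DKD TNFα and DKD untreated cells, and 0.105 ± 0.0498 and 0.0910 ± 0.0697 CPM in CTL TNFα and CTL untreated cells.

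IFIH1 was called in both TNFα contrasts and both line contrasts without the block. With it, so were UBE2L6, USP18, IFITM2, IFITM3, SAMD9, PARP14 and IFI27. MDA5, its product, senses long double-stranded RNA and signals through MAVS. IFIH1 had 39.1, 31.4 and 32.9 CPM in DKD TNFα libraries, against 25.3, 17.3 and 17.5 CPM in DKD untreated ones. The CTL libraries had 16.6, 14.3 and 15.3 CPM with TNFα, against 9.46, 7.02 and 7.41 CPM untreated. The 4 groups did not overlap, and even untreated DKD libraries lay above the TNFα-treated CTL ones. The TNFα log2 fold change was 0.78 (SE 0.17, edgeR adjusted p = 0.0470) in DKD and 0.95 (SE 0.17, adjusted p = 0.0170) in CTL cells. Without the block, leaving out single libraries ended these calls in 10 of 12 cases in DKD cells (adjusted p up to 0.201). In CTL cells it did so in 5 of 12 (up to 0.102). Both calls held with the block and all 12 libraries.

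The other RNA sensors and sensor-linked genes were not called. DHX58 (LGP2, a regulator of MDA5 and RIG-I) averaged 4.05 ± 0.291 CPM in DKD TNFα and 3.33 ± 0.105 CPM in DKD untreated cells, and 3.70 ± 0.247 CPM in CTL TNFα and 2.66 ± 0.730 CPM in CTL untreated cells. EIF2AK2 (PKR, the kinase that halts translation on double-stranded RNA) averaged 103 ± 19.7, 101 ± 20.9, 109 ± 21.9 and 116 ± 17.0 CPM in DKD TNFα, DKD untreated, CTL TNFα and CTL untreated cells. ADAR stayed between 256 ± 8.34 CPM (DKD untreated) and 275 ± 4.75 CPM (DKD TNFα). DDX60 averaged at most 0.194 CPM in any group.

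In the GBP family, large GTPases that attack intracellular pathogens, GBP3 was called. GBP3 had 1.10, 1.83 and 1.82 CPM in DKD TNFα libraries, against 0.383, 0.666 and 0.381 CPM in DKD untreated ones. In CTL cells GBP3 had 1.90, 2.76 and 2.62 CPM with TNFα, against 0.851, 0.801 and 0.744 CPM untreated. The groups did not overlap, with log2 fold changes of 1.72 (SE 0.30, edgeR adjusted p = 0.0142) in DKD and 1.60 (SE 0.29, adjusted p = 0.0153) in CTL cells. Leaving out 3 single libraries in turn ended the call in DKD cells (adjusted p up to 0.0855) and 5 ended it in CTL cells (up to 0.0957).

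GBP2 in CTL cells passed with the block and not without it (log2 fold change 1.81, SE 0.69, edgeR adjusted p = 0.246 without and 0.0452 with it), with means of 0.557 ± 0.364 CPM with TNFα and 0.155 ± 0.0329 CPM untreated. GBP2 in DKD cells averaged 0.283 ± 0.195 CPM with TNFα and 0.138 ± 0.0543 CPM untreated. GBP1 averaged 1.32 ± 1.04 CPM in DKD TNFα and 0.850 ± 0.732 CPM in DKD untreated cells, and 1.47 ± 0.772 CPM in CTL TNFα and 0.932 ± 0.541 CPM in CTL untreated cells. GBP4 ranged from 1.14 to 1.54 CPM over the group means. GBP genes lie side by side on chromosome 1 and resemble each other in sequence, so the split of reads among them is uncertain.

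Of the PARP genes with DTX3L, PARP12 was called with TNFα. PARP12 is a mono-ADP-ribosyltransferase that inhibits viral translation. It had 33.1, 37.5 and 37.5 CPM in DKD TNFα libraries, against 23.1, 25.2 and 24.8 CPM in DKD untreated ones. In CTL cells it had 36.3, 34.4 and 34.1 CPM with TNFα, against 25.2, 25.3 and 23.7 CPM untreated. With the groups apart in both lines, its log2 fold changes were 0.57 (SE 0.09, edgeR adjusted p = 0.00632) in DKD and 0.50 (SE 0.09, adjusted p = 0.0118) in CTL cells. In CTL cells the call was lost without either of CTL TNFα libraries 1 and 2 or CTL untreated libraries 2 and 3, with adjusted p of 0.0536 to 0.0993.

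PARP10 and PARP14, also mono-ADP-ribosyltransferases, passed in both lines with the block and not without it. PARP10 averaged 23.3 ± 3.98 CPM in DKD TNFα and 14.9 ± 2.03 CPM in DKD untreated cells, and 19.4 ± 2.30 CPM in CTL TNFα and 12.3 ± 1.32 CPM in CTL untreated cells. Its log2 fold change was 0.65 (SE 0.16) in both lines, with an edgeR adjusted p of 0.0758 (0.00839 with the block) in DKD and 0.0592 (0.00605 with the block) in CTL cells. PARP14 had log2 fold changes of 0.28 (SE 0.11) in both lines (adjusted p = 0.410, 0.0235 with the block, in DKD cells, and 0.279, 0.0146 with the block, in CTL cells). DTX3L, a ubiquitin ligase and partner of PARP9, passed with the block in CTL cells (log2 fold change 0.44, SE 0.11, adjusted p = 0.0244, against 0.273 without it). In DKD cells it had 0.32 (SE 0.11, adjusted p = 0.115) with the block.

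Genes of other roles passed the TNFα contrasts with the replicate block and not without it. In both lines these were UBE2L6 (the E2 enzyme for ISG15), IFITM2 and IFITM3 (membrane proteins that block virus entry), MX1 (a dynamin-like antiviral GTPase), SAMD9, TRIM21 (a cytosolic antibody receptor), IFI27 and IFI35, all higher, and USP18 (the protease that removes ISG15), which was lower. XAF1, a pro-apoptotic factor, was called higher in DKD cells and not in CTL cells, and the difference between the lines was not called. IFITM3 averaged 86.6 ± 21.0 CPM in DKD TNFα and 49.0 ± 11.9 CPM in DKD untreated cells, and 110 ± 13.7 CPM in CTL TNFα and 65.1 ± 7.28 CPM in CTL untreated cells. Its log2 fold changes were 0.82 (SE 0.21, edgeR adjusted p = 0.0923, 0.000690 with the block) in DKD and 0.76 (SE 0.21, adjusted p = 0.0912, 0.000809 with the block) in CTL cells. IFI27 averaged 8.28 ± 2.08 and 3.91 ± 1.01 CPM in DKD TNFα and DKD untreated cells, and 5.24 ± 1.27 and 2.35 ± 0.435 CPM in CTL TNFα and CTL untreated cells (log2 fold changes 1.08, SE 0.27, and 1.16, SE 0.27). USP18 averaged 14.3 ± 3.94 and 20.3 ± 3.79 CPM in DKD TNFα and DKD untreated cells, and 9.75 ± 2.00 and 14.96 ± 3.44 CPM in CTL TNFα and CTL untreated cells. USP18 values overlapped between treatments in both lines, and its log2 fold changes were -0.51 (SE 0.24, adjusted p = 0.514, 0.00887 with the block) in DKD and -0.62 (SE 0.24, adjusted p = 0.262, 0.00312 with the block) in CTL cells.

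The IFIT family, RNA-binding proteins that sequester viral RNA, held no TNFα call with or without the block. IFIT1 averaged 2.32 ± 1.13 CPM in DKD TNFα and 3.28 ± 2.55 CPM in DKD untreated cells, and 2.29 ± 0.552 CPM in CTL TNFα and 2.48 ± 0.946 CPM in CTL untreated cells. IFIT5 means lay between 16.1 and 18.9 CPM and IFIT2 means between 0.0936 and 0.220 CPM. ISG15, the ubiquitin-like modifier, averaged 11.8 ± 2.58 CPM in DKD TNFα and 9.49 ± 0.767 CPM in DKD untreated cells, and 11.9 ± 1.15 CPM in CTL TNFα and 9.27 ± 0.334 CPM in CTL untreated cells, with edgeR adjusted p of 0.556 and 0.332. Also uncalled in the TNFα contrasts with or without the block were HERC6, TRIM25, IFITM1, BST2, MX2, CMPK2, SP100, SP110 and IFI6. In all, 22 of the 46 tested members had no TNFα call in either line in either fit.

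Between the lines, the comparison under TNFα asked which of these genes differ in DKD cells after stimulation, and the untreated comparison which differ at rest. Under TNFα 1 member was higher in DKD cells, IFIH1, and 1 lower, SAMD9. Without TNFα 2 were higher, IFIH1 and PARP9, and 1 was lower, SAMD9. The members' shares higher and lower were 2.17% and 2.17% under TNFα, beside 3.94% and 2.30% of all genes, and 4.35% and 2.17% untreated, beside 3.13% and 1.86%, which is near the background. With the replicate block 10 members were higher and 5 lower under TNFα (21.7% and 10.9%, beside 10.6% and 8.79% of all genes). Untreated, 11 were higher and 4 lower (23.9% and 8.70%, beside 9.17% and 7.31%). With the block the shares higher thus stood above those of all genes in both states, a difference that was not tested. The median log2 fold change of the members, 0.056 under TNFα and 0.078 untreated, was close to those of all genes, 0.0016 and 0.011.

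IFIH1, with the library values given above, was higher in DKD than in CTL cells, with log2 fold changes of 1.16 under TNFα (SE 0.17, edgeR adjusted p = 0.00240) and 1.33 untreated (SE 0.18, adjusted p = 0.00148). Both calls held whichever single library was left out. SAMD9, a translation-repressing restriction factor of poxviruses, was low in DKD cells. It had 0.425, 1.11 and 0.997 CPM in DKD TNFα libraries, against 2.41, 3.64 and 2.69 CPM in CTL TNFα ones. Untreated, it had 0.219, 0.571 and 0.262 CPM in DKD libraries, against 1.24, 1.99 and 1.42 CPM in CTL ones. Every DKD library lay below every CTL library, with log2 fold changes of -1.79 under TNFα (SE 0.41, adjusted p = 0.0250) and -2.12 untreated (SE 0.44, adjusted p = 0.0166). Without DKD TNFα library 1 or 3, or CTL TNFα library 2 or 3, the call under TNFα was lost (adjusted p up to 0.104). Without DKD untreated library 3, or CTL untreated library 2 or 3, the untreated call was lost (adjusted p up to 0.0715). Its paralogue SAMD9L had at most 0.0749 CPM in any library.

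PARP9, an ADP-ribosyltransferase that acts with DTX3L, was called only in the untreated comparison. It had 22.1, 25.3 and 23.1 CPM in DKD TNFα libraries, against 21.5, 22.2 and 22.2 CPM in CTL TNFα ones, which overlapped. Untreated, it had 24.6, 29.8 and 30.8 CPM in DKD libraries, against 21.4, 21.3 and 21.6 CPM in CTL ones, which did not. The untreated log2 fold change was 0.41 (SE 0.10, edgeR adjusted p = 0.0437), and the call was lost when any 1 of 10 libraries was left out (adjusted p 0.0691 to 0.169), with RLE size factors (0.0540), and without the filter on low counts (0.122). That under TNFα was 0.10 (SE 0.10, adjusted p = 0.724). PARP9 and DTX3L overlap at their ends on chromosome 3 (122527924 to 122564784 and 122564338 to 122575203, GRCh38), and the strand setting of the counting is not given, so reads from the overlap may not be told apart.

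With the replicate block, 8 members were higher in DKD cells in both comparisons, of which IFIH1 was called without it and UBE2L6, USP18, IFIT3, PARP14, SP100, SP110 and IFI27 were not. PARP14 had 135, 124 and 120 CPM in DKD TNFα libraries, against 105, 92.3 and 86.4 CPM in CTL TNFα ones. Untreated, it had 112, 101 and 101 CPM in DKD libraries, against 90.8, 69.8 and 72.6 CPM in CTL ones. Its DKD libraries lay above its CTL libraries in both states (log2 fold change 0.42, SE 0.11, edgeR adjusted p = 0.0530, 0.00104 with the block, under TNFα, and 0.43, SE 0.11, adjusted p = 0.0586, 0.00116 with the block, untreated). SP110, a nuclear body protein, averaged 9.91 ± 1.22 CPM in DKD TNFα and 7.15 ± 1.204 CPM in CTL TNFα cells, and 9.92 ± 0.691 CPM in DKD untreated and 6.29 ± 1.29 CPM in CTL untreated cells (log2 fold change 0.65, SE 0.18, adjusted p = 0.0621 untreated, 0.00134 with the block).

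Lower in DKD cells in both comparisons with the block were IFITM2, IFITM3 and SAMD9. IFITM2 averaged 15.4 ± 6.29 CPM in DKD TNFα and 28.2 ± 6.27 CPM in CTL TNFα cells, and 7.54 ± 3.42 CPM in DKD untreated and 15.1 ± 3.85 CPM in CTL untreated cells. Its log2 fold changes were -0.87 (SE 0.40, edgeR adjusted p = 0.275, 0.00259 with the block) under TNFα and -1.0003 (SE 0.40, adjusted p = 0.227, 0.00190 with the block) untreated. IFITM1, IFITM2 and IFITM3 are neighbours that resemble each other in sequence, so the split of reads among them is uncertain. EIF2AK2 was lower in DKD cells untreated, and IRF3 and HERC6 under TNFα, each with the block and not without it. MX2 and ISG20 were higher in DKD cells untreated, and TRIM25 and MX1 under TNFα, likewise.

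**Figure D4:**
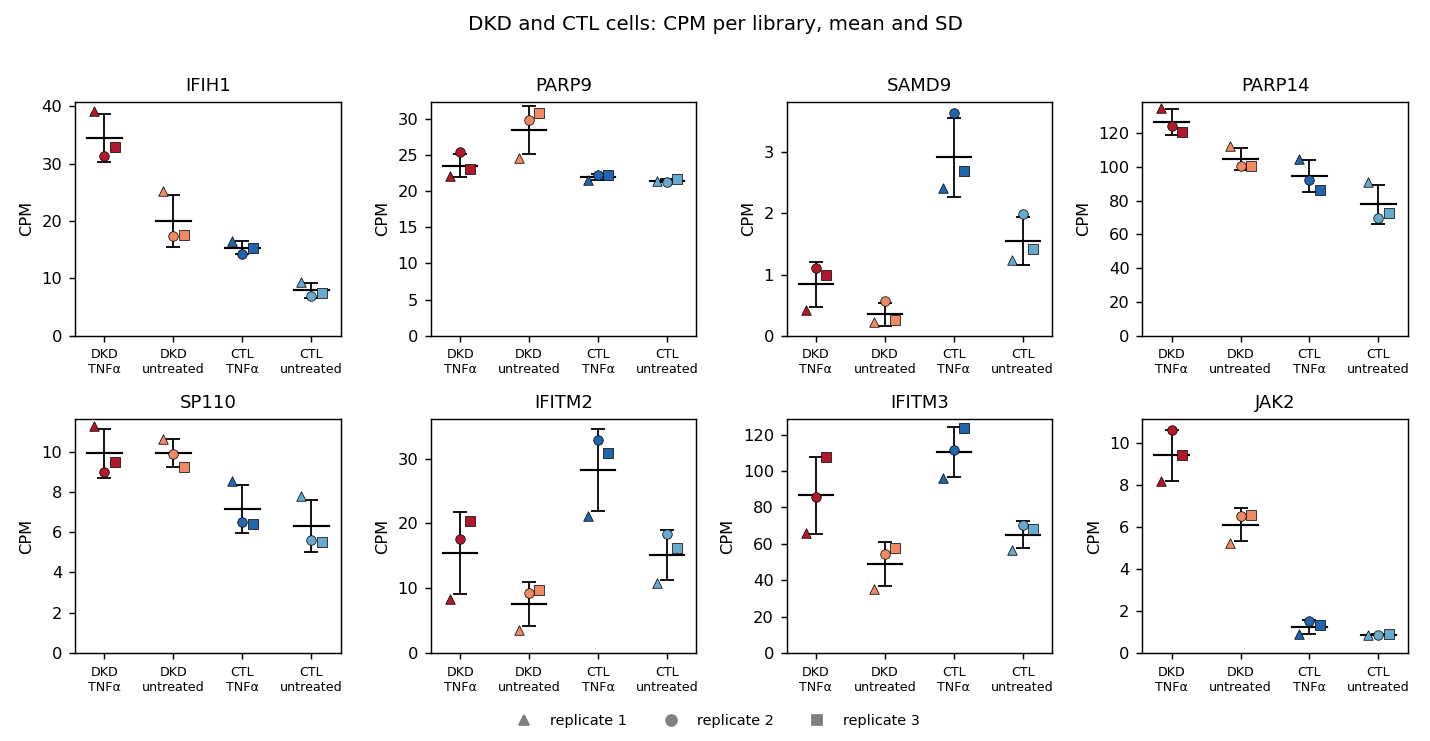
CPM per library (points, shape by replicate number) with mean and SD (lines) of 7 member genes and of the kinase gene JAK2, with DKD TNFα, DKD untreated, CTL TNFα and CTL untreated from left to right. IFIH1 and JAK2 are higher and SAMD9 lower in DKD than in CTL cells at both treatments, while PARP14, SP110, IFITM2 and IFITM3 were called with the replicate block and not without it.

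No member was called as differing in its TNFα response between DKD and CTL cells (0% of all genes were). The interaction, the TNFα log2 fold change in DKD minus that in CTL cells, was called in edgeR for 0 of 16118 genes, with 184 genes and 0 members at an unadjusted p under 0.05. DESeq2 called 2 genes higher and 3 lower, none of them members. Of the 8 genes called with TNFα, intervals of the interaction were narrowest for IRF1 (0.09, 95% interval -0.23 to 0.41), PARP12 (0.07, -0.19 to 0.33) and IRF2 (-0.01, -0.29 to 0.28). Those of PARP12 and IRF2 were still wide beside their TNFα log2 fold changes (0.57 in DKD and 0.50 in CTL cells, and 0.41 in both). Wider intervals were found for ISG20 (-0.35, -0.99 to 0.29), IFIH1 (-0.16, -0.70 to 0.37), OAS1 (0.00, -0.47 to 0.48), OAS3 (0.11, -0.39 to 0.60) and GBP3 (0.12, -0.76 to 1.01). A modest difference in response could therefore not be seen in any of these genes. The interval of PARP9 was -0.62 to 0.01 around -0.31. With the replicate block 0 of 16118 genes were called in edgeR, with 556 genes and 3 members at an unadjusted p under 0.05. These members were PARP9 (-0.30, 95% interval -0.56 to -0.05), XAF1 (0.55, 0.04 to 1.06) and TRIM25 (0.19, 0.0010 to 0.37), and none of them passed the adjustment.

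Genes of the pathway around the members came from lists chosen with earlier results of these data known. Of 10 interferon ligands, 9 (IFNA1, IFNA2, IFNB1, IFNE, IFNK, IFNG, IFNL1, IFNL2 and IFNL3) had 0 counts in every library and IFNW1 at most 0.0486 CPM, so none was tested. For the 9 at 0, the floor of 3 counts is 0.0713 to 0.0962 CPM per library. The receptor chains IFNAR1, IFNAR2, IFNGR1, IFNGR2, IFNLR1 and IL10RB were all measurable.

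Of 10 receptors, kinases and STATs, TNFα raised 3 in DKD cells and 2 in CTL cells and lowered none. Of all genes, 1.54% in DKD and 1.90% in CTL cells were called higher, and 0.254% and 0.726% lower. IFNGR2, the signalling chain of the interferon-gamma receptor, had 60.8, 76.4 and 78.6 CPM in DKD TNFα libraries, against 37.5, 45.4 and 46.1 CPM in DKD untreated ones. In CTL cells IFNGR2 had 67.03, 76.7 and 77.1 CPM with TNFα, against 36.3, 37.9 and 39.2 CPM untreated. TNFα libraries were clear of untreated ones (log2 fold changes 0.74, SE 0.12, and 0.96, SE 0.12; edgeR adjusted p = 0.00838 and 0.00162). JAK1, the kinase shared by all interferon receptors, rose in DKD cells (log2 fold change 0.50, SE 0.07, adjusted p = 0.00484) and in CTL cells (0.58, SE 0.07, adjusted p = 0.00179). IFNGR1, the ligand-binding chain, was called in DKD cells (0.60, SE 0.13, adjusted p = 0.0437), with 0.50 (SE 0.13, adjusted p = 0.0740) in CTL cells.

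Between the lines JAK2 was higher in DKD cells in both states. JAK2, the kinase of the interferon-gamma and several cytokine receptors, had 8.22, 10.6 and 9.41 CPM in DKD TNFα libraries, against 0.902, 1.54 and 1.32 CPM in CTL TNFα ones. Untreated, JAK2 had 5.22, 6.54 and 6.58 CPM in DKD libraries, against 0.851, 0.865 and 0.912 CPM in CTL ones. The lines were far apart, with log2 fold changes of 2.91 (SE 0.21, edgeR adjusted p = 2.72e-05) under TNFα and 2.80 (SE 0.21, adjusted p = 4.15e-05) untreated.

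Of 12 genes of nucleic acid sensing and interferon induction, 11 were tested and TICAM1, the adaptor of TLR3, was called with TNFα in both lines. Its log2 fold change was 1.05 (SE 0.16, edgeR adjusted p = 0.00675) in DKD and 1.06 (SE 0.16, adjusted p = 0.00589) in CTL cells. RIGI, the sensor listed as DDX58, had 0.59 (SE 0.14, adjusted p = 0.0509) in CTL cells. None of the 11 was called between the lines without the replicate block. With the block 1 was lower in DKD cells under TNFα and 1 untreated (8.79% and 7.31% of all genes). Of 7 other IRF genes, 4 were tested, and IRF5, which drives inflammatory cytokines, had log2 fold changes with TNFα of 1.52 (SE 0.27, adjusted p = 0.0155) in DKD and 1.24 (SE 0.27, adjusted p = 0.0358) in CTL cells. None of 7 negative regulators of the pathway, among them SOCS1 and SOCS3, was called in any contrast with or without the block. With it, 6 of the receptors, kinases and STATs were higher with TNFα in DKD and 4 in CTL cells. Among the sensing genes 3 and 4 were higher, beside 5.55% and 7.94% of all genes. The median log2 fold change with TNFα was 0.36 in DKD and 0.25 in CTL cells over the tested receptors, kinases and STATs. Over the tested sensing genes it was 0.26 and 0.43, and over all genes -0.0082 and 0.00084.

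Of 12 interferon-gamma induced and MHC class II genes, 7 were tested and 2 rose with TNFα in both lines. Of all genes, 1.54% in DKD and 1.90% in CTL cells did so. For CD74, the MHC class II invariant chain, the log2 fold change was 1.26 (SE 0.15, edgeR adjusted p = 0.00119) in DKD and 1.03 (SE 0.15, adjusted p = 0.00382) in CTL cells. For ICAM1, an adhesion molecule that is also a classical NF-kB target, it was 1.74 (SE 0.17, adjusted p = 0.000394) in DKD and 2.08 (SE 0.17, adjusted p = 0.000153) in CTL cells. Neither was called between the lines without the replicate block. With the block, 2 of the 7 tested genes were higher with TNFα in DKD and 4 in CTL cells (5.55% and 7.94% of all genes). Between the lines, 1 was then higher and 1 lower in DKD cells under TNFα (10.6% and 8.79% of all genes), and 1 lower untreated (7.31%). The median log2 fold change with TNFα over the 7 tested genes was 0.11 in DKD and 0.66 in CTL cells. Over all genes it was -0.0082 and 0.00084. The chemokines CXCL10 and CXCL11 reached at most 0.032 CPM, and CXCL9 and HLA-DRA were at 0. The floor of CXCL9 and HLA-DRA was that of the 9 ligands.

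The members differed in what they varied with. The sum of squares of log2 CPM over the 12 libraries was largest for TNFα in 21 of the 46 tested genes. It was largest for the line in 11, for the replicate number in 10 and for the rest in 4. The replicate number and the rest have more degrees of freedom than TNFα or the line, and the shares were not adjusted for this. Among the 10 were IFIT2 and CMPK2, with only 81 and 102 counts over all libraries. TNFα took 94.9% in PARP12, 85.4% in ISG20 and 83.2% in OAS1. The line took 71.2% in SP110, 67.5% in SAMD9, 62.9% in IFIH1 and 58.4% in PARP14. The replicate number took 88.5% in IFIT5, 85.0% in EIF2AK2, 77.4% in IFIT1, 77.2% in GBP1 and 74.5% in BST2.

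**Figure D5:**
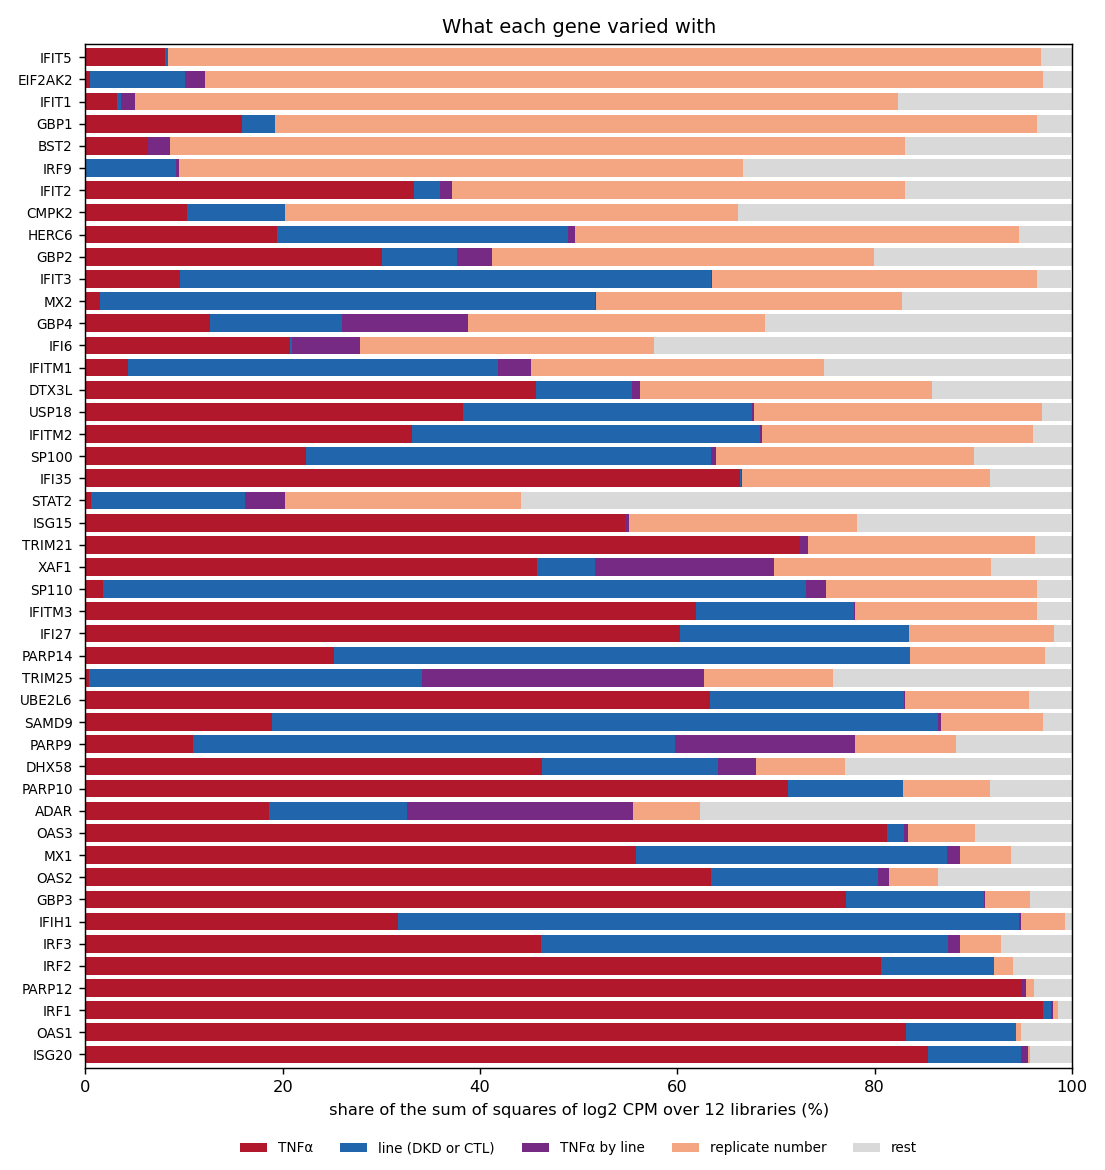
Share (%) of the sum of squares of log2 CPM over the 12 libraries that goes with TNFα, the line, their interaction, the replicate number and the rest, for each tested gene, ordered by the share of the replicate number with the highest at the top. IFIT5 has 88.5% with the replicate number, and ISG20 at the bottom 0.227%.

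The library numbered 1 was the highest of its group in all 4 groups for 11 members and the lowest in all 4 for 9. The 11 were USP18, IFIH1, EIF2AK2, IFIT1, IFIT3, IFIT5, GBP1, PARP14, SP100, SP110 and XAF1, and the 9 were UBE2L6, HERC6, IFITM2, IFITM3, SAMD9, DTX3L, TRIM21, IFI27 and IFI35. GBP1 had 2.52, 1.69, 2.37 and 1.56 CPM in the libraries numbered 1 of DKD TNFα, DKD untreated, CTL TNFα and CTL untreated cells, while the other 8 libraries lay between 0.381 and 1.06 CPM. GBP1 thus varied with the number in the same direction in both lines and treatments. What the number stands for is not given in the sources used here, and its part in the results was not tested. Without both DKD libraries numbered 1, an alternative chosen after seeing the data, 10 members were higher with TNFα in DKD cells (2.22% of all genes) and 17 in CTL cells (5.15%), and none lower (0.639% and 3.45%). In that fit 5 were higher and 1 lower in DKD than in CTL cells under TNFα (5.75% and 3.46% of all genes), and 4 higher and 1 lower untreated (5.08% and 3.42%).

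By position in RefSeq (GRCh38), 29 members lay in 11 runs of neighbours with gaps of at most 200000 bases. The OAS run spans OAS1 (chromosome 12, 112906962 to 112933219), OAS3 (112938474 to 112973251) and OAS2 (112978519 to 113011723), of which OAS1 and OAS3 were called with TNFα in both lines. In the GBP run on chromosome 1, from GBP3 (89006680 to 89022866) to GBP4 (89181144 to 89198942), GBP3 was called and GBP1, GBP2 and GBP4 were not. In the IFIT run on chromosome 10, from IFIT2 (starting at 89302046) to IFIT5 (ending at 89420997), none of the 4 genes was called. Position and response were not tested against each other.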

How the data were processed

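RNA of 12 libraries was analysed from the estimated counts by gene symbol that the authors deposited, all of them whole numbers. The submitters' processing notes name Salmon 0.14.0, CASAVA 1.7, DESeq2 and the build GRCh38/hg38. Not given in the sources used here: annotation, gene summarisation, strandedness. The normalised signal also deposited is the same counts divided by 1 factor per library and was left out. Columns carry the sample titles.

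Tests on these counts used edgeR 4.0.16 (R 4.3.3) with TMM factors, filterByExpr (minimum count 10, minimum total 15), 1 mean per group over all 12 libraries (8 residual degrees of freedom) and the quasi-likelihood test, with Benjamini-Hochberg adjustment over 16118 genes. The script was tested on simulated counts. CPM used TMM-scaled library sizes. Promoters (GRCh38.p14) and gene positions came from RefSeq and exon lengths from GENCODE v29. Motifs were searched on both strands.

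The titles number the libraries 1 to 3 in each group. Deviations from the group means correlated at 0.193 to 0.695 (median 0.328) in all 18 pairs of the same number and at -0.544 to 0.311 in 36 other pairs. Pairs of libraries numbered 1 gave 0.409 to 0.695, and those of number 2 with number 3 gave 0.0388 to 0.311. The numbers thus pair the samples in these data, most clearly by setting the libraries numbered 1 apart. The fit with the number as a block was an alternative, beside DESeq2 1.42.0, RLE factors, no filter, only the 2 groups compared, replicates 2 and 3 alone, and leaving out each library.

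Values per library are given for members called in at least 1 contrast and for the 6 IRF and ISGF3 factors; other members are given by means, ranges or counts, and called pathway genes are named. GBP1, PARP14 and the genes named for the block were added after their values were seen. The members and lists were chosen with earlier results of these data known. Floors cover counting error only; intervals of the interaction come from the edgeR fit and include the spread between libraries. 1 gene misplaced among the negative regulators was dropped after its values were seen. A gene of the signalling pathway is not reported here.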

Additional observations from a re-analysis of the deposited data

How the results depend on the processing

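The number of members called was 21 (TNFα in DKD cells), 22 (TNFα in CTL cells), 15 (DKD against CTL, TNFα) and 15 (DKD against CTL, untreated) with the replicate block, against 7, 8, 2 and 3 without it. With DESeq2 these counts were 14, 14, 5 and 6 (4.44%, 7.06%, 11.2% and 9.25% of all genes), and with replicates 2 and 3 alone 21, 22, 11 and 14 (8.43%, 13.8%, 14.7% and 12.3%). Without both DKD libraries numbered 1, chosen after seeing the data, they were 10, 17, 6 and 5 (2.86%, 8.60%, 9.22% and 8.5%). Leaving out 1 library at a time gave 4 to 9 for TNFα in DKD cells, 3 to 13 for TNFα in CTL cells, 1 to 3 for DKD against CTL under TNFα, 1 to 4 untreated, and 0 for the interaction. Of all 16380 to 16452 genes tested in these fits, 112 to 273 were higher and 15 to 87 lower with TNFα in DKD cells. In CTL cells 115 to 482 were higher and 34 to 227 lower. Between the lines 351 to 944 were higher and 213 to 601 lower in DKD cells under TNFα, and 255 to 581 and 168 to 336 untreated. The interaction had at most 1 gene. With only the 2 groups compared in the fit the counts of members were 1 (TNFα in DKD cells, 0.264% of all genes), 13 (TNFα in CTL cells, 4.47%) and 1 (DKD against CTL, untreated, 2.15%). In DKD cells that fit ended the TNFα calls of IFIH1, OAS1, OAS3, ISG20, GBP3 and PARP12 (edgeR adjusted p 0.0820 to 0.307). It also ended those of IRF2 in CTL cells (0.0659) and of SAMD9 (0.0684) and PARP9 (0.205) in untreated DKD cells. Without the filter on low counts the calls of IFIH1 in DKD cells (0.0507) and of IRF2 (0.126) and OAS3 (0.0518) in CTL cells were lost. The cause of these shifts was not tested. No log2 fold change of a member called with or without the block changed sign under the alternatives run. IFIT1, called in neither, was 0.02 in DKD against CTL cells under TNFα and -0.06 with the block. MACROH2A1 and MACROH2A2 were called lower in DKD cells in every fit. The 8 genes below the filter held 6 to 87 counts each over all libraries.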
